A study of Mus musculus with 28 samples.

Results

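Immediate early genes are transcribed within minutes of a stimulus, and enzymatic and mechanical dissociation of tissue is among the stimuli known to raise them. The 10 genes described here are Fos, Fosb, Jun, Junb, Jund, Egr1, Atf3, Ier2, Zfp36 and Dusp1. They were taken by name from that known response, and all 10 were found by symbol among 47643 gene rows. The libraries came from freshly sorted cells of H2B-GFP mice. They held thyroid GFP+ cells at 3, 6 and 9 months (4, 4 and 3 libraries), thyroid GFP- cells at the same ages (4, 4 and 3 libraries), and salivary gland GFP+ and GFP- cells at 9 months (3 libraries each). All 28 libraries thus carried the H2B-GFP transgene, came from dissociated and sorted tissue and were sequenced as 3′ tags of polyadenylated RNA. Histone H2B-GFP is diluted by cell division, so a GFP+ cell is one that kept the label. The promoter that drives the transgene, the length of any chase, the sex of the mice and the dissociation procedure are not given in the sources used here. No library of undissociated tissue was analysed here, so how far dissociation had moved these genes was not measured.

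The group contains the parts of a circuit. Signals through MAP kinases act on serum response factor and CREB already bound at the promoters, so no new protein is needed for the first transcripts. Fos, Fosb, Jun, Junb and Jund encode subunits of the AP-1 transcription factor, in which a Fos protein pairs with a Jun protein. Egr1 encodes a zinc finger factor, Atf3 a stress-induced factor of the ATF family and Ier2 a small nuclear protein. Dusp1 and Zfp36 close the loop, as a phosphatase that inactivates MAP kinases and as a protein that binds AU-rich elements and speeds the decay of messenger RNAs. Jund is known as the AP-1 subunit with the steadiest basal expression.

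The stretches just upstream of 5 members are shown because they hold letter matches to motifs of factors that are known to act in immediate early induction. RefSeq promoters (build GRCm38.p6) were matched by symbol for 8 of the 10 members, all but Egr1 and Ier2. Each line below gives the 200 bases before the annotated start, 5′ to 3′ on the gene's strand. Capitals mark TGACG (the core of the cAMP response element, of which the full form is TGACGTCA), the Egr-type motif GCGGGGGCG and the CArG box bound by serum response factor.
Fos, chr12:85473690-85473889, plus strand: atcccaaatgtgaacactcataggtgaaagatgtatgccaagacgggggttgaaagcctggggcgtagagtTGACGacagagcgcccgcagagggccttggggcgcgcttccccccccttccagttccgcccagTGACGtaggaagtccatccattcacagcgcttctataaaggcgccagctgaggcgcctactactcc
Fosb, chr7:19310046-19310245, minus strand: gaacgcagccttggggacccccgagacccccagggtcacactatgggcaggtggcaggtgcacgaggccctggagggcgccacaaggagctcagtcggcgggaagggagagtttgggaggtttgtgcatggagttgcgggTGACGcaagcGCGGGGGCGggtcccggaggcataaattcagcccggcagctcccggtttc
Junb, chr8:84978749-84978948, minus strand: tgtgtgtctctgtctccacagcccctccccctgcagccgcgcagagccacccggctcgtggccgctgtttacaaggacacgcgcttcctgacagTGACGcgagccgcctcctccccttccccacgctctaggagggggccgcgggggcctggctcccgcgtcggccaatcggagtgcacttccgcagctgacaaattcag
Dusp1, chr17:26508473-26508672, minus strand: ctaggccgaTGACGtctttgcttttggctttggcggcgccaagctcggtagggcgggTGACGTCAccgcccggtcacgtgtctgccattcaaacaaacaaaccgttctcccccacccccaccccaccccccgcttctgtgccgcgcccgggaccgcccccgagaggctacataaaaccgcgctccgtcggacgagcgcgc
Zfp36, chr7:28379229-28379428, minus strand: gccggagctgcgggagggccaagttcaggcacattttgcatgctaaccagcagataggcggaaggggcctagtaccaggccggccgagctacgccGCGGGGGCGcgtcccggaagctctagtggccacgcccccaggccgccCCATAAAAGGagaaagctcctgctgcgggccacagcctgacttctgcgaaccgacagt

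In these windows, Fos held TGACG at -129 to -125 and at -66 to -62 relative to the start, and TATAAA at -33 to -28. Fosb held TGACG at -60 to -56 and GCGGGGGCG at -50 to -42. Junb held TGACG at -106 to -102. Dusp1 held TGACG at -191 to -187 and the full TGACGTCA at -143 to -136, which contains a further TGACG. Zfp36 held GCGGGGGCG at -105 to -97 and a CArG box at -58 to -49. Motifs were searched on both strands over 250 bases before and 50 bases after the start of each of 32851 promoters. TGACG was present in 5 of the 8 members' promoters (Fos, Fosb, Junb, Dusp1 and Atf3), against 20.8% of all promoters. GCGGGGGCG was present in 2 of 8, against 2.91% of all. TGACGTCA was present in 1 of 8, against 1.79% of all, and the CArG box in 1 of 8, against 1.63% of all. TATAAA was present in 2 of 8 (Fos and Junb), against 13.6% of all. In Junb it lay at 1 to 6, past the bases printed above. The AP-1 motif TGANTCA was in 0 of 8, against 7.81% of all. A match is a description of these letters and not a bound site, and no match says only that the letters are not in this window.

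The libraries were shallow and uneven, with 507 to 209091 reads in genes, and 6 of the 28 held fewer than 10000. The shallow ones were thyroid GFP+ at 3 months replicates 1 and 2 (1562 and 5896 reads) and at 6 months replicate 4 (507 reads), thyroid GFP- at 6 months replicate 2 (4845 reads) and at 9 months replicate 1 (5884 reads), and salivary GFP+ replicate 1 (993 reads). A value of 0 in a library allows up to 3 reads, which is 14.3 to 5917 CPM depending on the library, for counting error only. CPM, the usual scaling of counts to library size, is taken here over the reads in genes. A 3′ library gives about 1 tag per transcript, so CPM was not divided by gene length, and levels of different genes are compared on that scale. The 10 members held 23242 of 2263832 reads. The sort was checked against marker lists. In thyroid, the 10 fibroblast markers summed to 13537 to 17250 CPM in the GFP+ groups and 1687 to 7577 CPM in the GFP- groups, pooled by age. The 8 endothelial markers summed to 237 to 816 CPM in GFP+ and 2572 to 7619 CPM in GFP- groups. The 8 thyrocyte markers summed to 433 to 3969 CPM in GFP+ and 3427 to 7615 CPM in GFP- groups, with Slc26a4 at 0 reads in every group, Slc5a5 at 0 in GFP+ cells at 6 months and Tshr at 0 in GFP+ cells at 9 months. The 4 parathyroid markers summed to 2780 to 41197 CPM in GFP+ and 16337 to 59831 CPM in GFP- groups, and the 4 C cell markers to 1189 to 14628 CPM in GFP+ and 7977 to 26420 CPM in GFP- groups, with Calcb at 0 in every group. Gcm2 and Casr were at 0 in GFP+ cells at 3 months, as was the C cell marker Scg2. The 4 red cell markers summed to 194 to 1329 CPM in GFP+ and 1651 to 10524 CPM in GFP- groups. Pericyte and smooth muscle markers, 6 in all, summed to 538 to 2174 CPM in GFP+ and 237 to 633 CPM in GFP- groups. Macrophage and lymphocyte markers summed to at most 219 CPM in any group. In bulk samples, fewer cells of a type and less RNA per cell cannot be told apart.

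The members were among the most abundant transcripts of the sorted thyroid cells, in both fractions. Pooled over the 22 thyroid libraries, Egr1 had the highest level of the 10, at 2107 CPM, which ranked 17 among 16525 genes detected. Below it came Junb at 1858 CPM (rank 22), Fos at 1802 CPM (rank 24), Jun at 1612 CPM (rank 28), Fosb at 1400 CPM (rank 33) and Jund at 1142 CPM (rank 42). Zfp36 stood at 761 CPM (rank 74), Atf3 at 560 CPM (rank 117), Dusp1 at 332 CPM (rank 224) and Ier2 at 229 CPM (rank 399). The ranks count ribosomal and mitochondrial genes among the rest. So the 6 most abundant members were Egr1 and the 5 AP-1 subunits, and Atf3, Ier2 and both feedback genes lay lower.

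**Figure D1:**
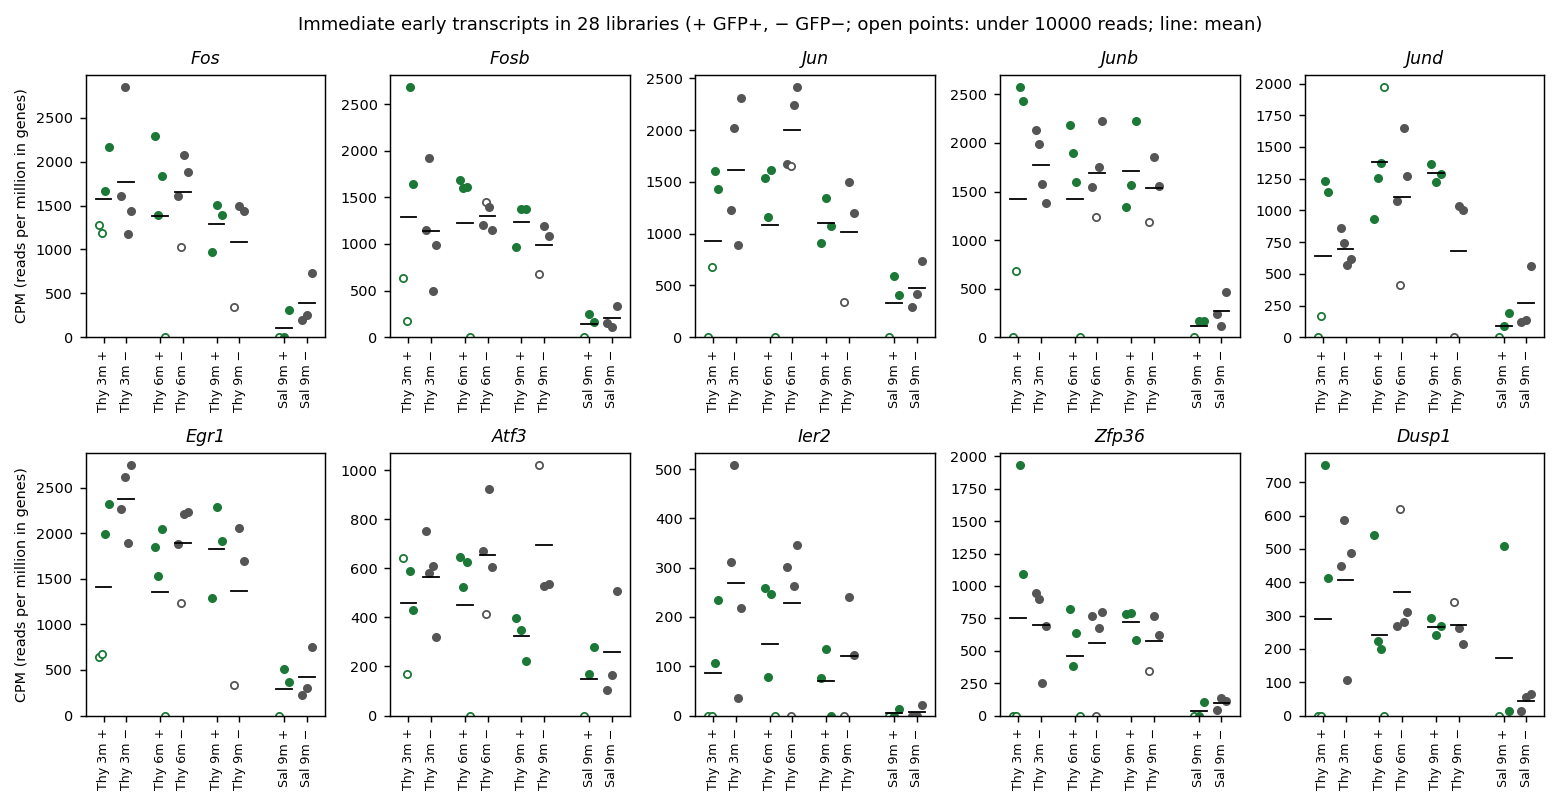
CPM (linear axis) of each of the 10 genes in every library, by group, with GFP+ left of GFP- within each age and gland. Points are libraries, open points those under 10000 reads, and the lines are group means. With the ages together the thyroid fractions overlap for every gene, and nearly all thyroid points at 0 are open.

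The plot of CPM by library shows how far the shallow libraries spread. Over 11 GFP+ and 11 GFP- thyroid libraries, the lowest, median and highest values of Egr1 were 0, 1845 and 2321 CPM in GFP+ cells and 340, 2051 and 2743 CPM in GFP- cells. Fos gave 0, 1395 and 2292 CPM in GFP+ cells and 340, 1493 and 2849 CPM in GFP- cells. Among the partners of Fos, Junb gave 0, 1601 and 2575 CPM in GFP+ cells and 1190, 1573 and 2226 CPM in GFP- cells. For these 3 genes the 2 fractions overlapped over most of their range and the medians lay close together. Jund gave 0, 1234 and 1972 CPM in GFP+ cells and 0, 858 and 1650 CPM in GFP- cells. Zfp36, the messenger RNA decay factor, gave 0, 634 and 1931 CPM in GFP+ cells and 0, 692 and 943 CPM in GFP- cells. Jund and Zfp36 overlapped between the fractions. Dusp1, the MAP kinase phosphatase, gave 0, 241 and 751 CPM in GFP+ cells and 107, 311.9 and 619 CPM in GFP- cells. Fosb gave 0, 1375 and 2683 CPM in GFP+ cells and 501, 1152 and 1920 CPM in GFP- cells. Dusp1 and Fosb overlapped too, with the GFP+ median higher for Jund and Fosb and lower for Zfp36 and Dusp1. Within 1 age the exception was Jund at 9 months, at 1367, 1222 and 1291 CPM in GFP+ libraries and 0, 1033 and 1006 CPM in the GFP- ones, which did not overlap.

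Among the deeper libraries the spread differed between genes. Over the 17 thyroid libraries with at least 10000 reads, the coefficient of variation was 17.8% for Egr1, 20% for Junb, 26.2% for Jund, 26.9% for Fos, 30.7% for Jun, 30.9% for Atf3 and 34.3% for Fosb. It was larger for the less abundant Zfp36 (44.8%), Dusp1 (48.0%) and Ier2 (63.0%). In those libraries the 10 genes together gave 8386 to 15129.6 CPM (median 11300.0 CPM) in 8 GFP+ libraries and 7617 to 14718 CPM (median 11190.2 CPM) in 9 GFP- libraries. The summed level of the circuit covered largely overlapping ranges in the GFP+ and the GFP- fraction. Its means were 11569.7 ± 2126 CPM in GFP+ and 11484 ± 2158 CPM in GFP- cells (SD, n = 8 and 9). Ribosomal RNA rows took 25.1 to 35.1% of gene reads in those GFP+ libraries and 29.7 to 47.7% in those GFP- libraries. Without these rows the means were 16535.5 ± 2670 CPM in GFP+ and 18182 ± 2724 CPM in GFP- cells (SD). The ranges were then 11688 to 20193 CPM and 14549 to 21419 CPM, which overlapped. A fit without these rows called the same single member in the comparison that follows.

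Whether label-retaining thyroid cells differ from label-free ones was tested with edgeR's quasi-likelihood test over 1900 genes, with Benjamini-Hochberg adjustment at 0.05. Over the mean of the 3 ages, 383 genes (20.2%) were called, 216 higher (11.4%) and 167 lower (8.79%) in GFP+ cells. Of the 10 members 1 was called, Ier2, which was lower in GFP+ cells. All 10 fitted log2 fold changes were below 0, with a median of -0.32, against -0.08 over all genes tested. Scaling by library size alone, without TMM factors, moved the median over all genes to 0.24 and that of the members to 0.05, with 6 of 10 above 0, so the common sign depended on the scaling. In both scalings the members' median lay below that of all genes.

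Ier2, the small nuclear protein gene, was at 0, 0, 107 and 234 CPM in GFP+ cells at 3 months, at 259, 78.6, 246 and 0 CPM at 6 months and at 76.8, 135 and 0 CPM at 9 months. In GFP- cells it was at 310.9, 508, 35.8 and 218 CPM at 3 months, at 301.7, 0, 263 and 347 CPM at 6 months and at 0, 241 and 123 CPM at 9 months. The fractions overlapped at every age, and of the 4 libraries at 0 in GFP+ cells 3 held fewer than 10000 reads, as did both of those at 0 in GFP- cells. The fold change was -1.06 ± 0.38 on the log2 scale (SE, 95% interval -1.80 to -0.31, adjusted p = 0.0289). Its means were 103 ± 103 CPM in GFP+ and 213 ± 160 CPM in GFP- cells (SD, n = 11 each). The call was lost in DESeq2 (log2 fold change -1.11, adjusted p = 0.160), without a filter on low counts (-0.99, adjusted p = 0.398), with all 28 libraries in 1 fit (-1.01, adjusted p = 0.0590) and by library size alone (-0.77, adjusted p = 0.107). It was also lost in 7 of 22 fits that left out 1 library, as listed with the processing alternatives.

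Atf3 and Jun had the next lowest fold changes and were not called. Atf3, the stress-induced ATF factor, was at 640, 170, 590 and 429 CPM in GFP+ cells at 3 months, at 646, 524, 624 and 0 CPM at 6 months and at 399, 347 and 221 CPM at 9 months. In GFP- cells it was at 751, 581, 608 and 320 CPM at 3 months, at 670, 413, 923 and 606 CPM at 6 months and at 1020, 528 and 538 CPM at 9 months. At 9 months the fractions did not overlap, and at the earlier ages they did. Its log2 fold change over the 3 ages was -0.82 (95% interval -1.58 to -0.06, adjusted p = 0.133).

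Jun, the founding member of the Jun family, was at 0, 678, 1610 and 1429 CPM in GFP+ cells at 3 months, at 1540, 1166, 1616 and 0 CPM at 6 months and at 906, 1345 and 1070 CPM at 9 months. In GFP- cells it was at 1233, 2024, 894 and 2307 CPM at 3 months, at 1676, 1651, 2248 and 2417 CPM at 6 months and at 340, 1501 and 1198 CPM at 9 months. At 6 months every GFP- library lay above every GFP+ library, while at 3 and 9 months the fractions overlapped. Its log2 fold change over the 3 ages was -0.69 (95% interval -1.54 to 0.16, adjusted p = 0.312). Without the 5 thyroid libraries under 10000 reads, Ier2 (-1.01, adjusted p = 0.0449), Atf3 (-0.69, adjusted p = 0.0261) and Jun (-0.59, adjusted p = 0.0211) were all called lower in GFP+ cells, with 489 of 2462 genes called (19.9%). With a stricter filter on low counts, Atf3 (-0.90, adjusted p = 0.00763) and Jun (-0.75, adjusted p = 0.0161) were called and Ier2 was not tested, with 89 of 321 genes called (27.7%). Markers of several cell types differed between the same fractions. In GFP+ cells 9 of 9 tested fibroblast markers and 3 of 5 pericyte and smooth muscle markers were called higher. Called lower were 8 of 8 endothelial, 3 of 4 thyrocyte, 2 of 2 parathyroid, 3 of 3 C cell and 4 of 4 red cell markers. Their part in the values of Ier2, Atf3 and Jun was not tested.

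**Figure D2:**
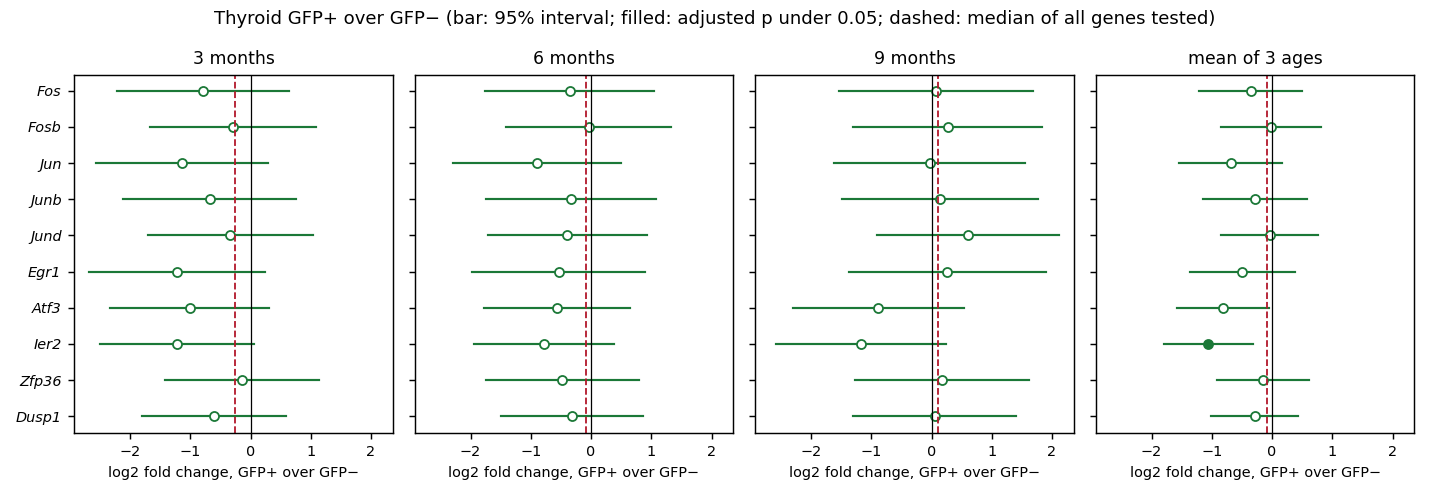
Log2 fold changes of GFP+ against GFP- cells (axis: log2 fold change, with 95% intervals) for each of the 10 genes in thyroid, at 3, 6 and 9 months and over the mean of the 3 ages. The filled point has an adjusted p under 0.05 and the dashed line is the median of all genes tested. Over the mean of ages the interval of Ier2 runs from -1.80 to -0.31, and every interval at a single age crosses 0.

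The other 7 members had smaller fold changes, and none of them passed the test. Egr1 gave -0.50 (95% interval -1.37 to 0.37), Fos -0.36 (-1.21 to 0.50), Junb -0.29 (-1.15 to 0.57) and Dusp1 -0.29 (-1.01 to 0.43) on the log2 scale. Zfp36 gave -0.15 (-0.92 to 0.62), Jund -0.04 (-0.85 to 0.77) and Fosb -0.02 (-0.85 to 0.81). These intervals still admit differences of more than 1 log2 unit for Egr1, Fos, Junb and Dusp1, so they do not show that the fractions were alike. The plot of fold changes shows the same genes at single ages.

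By age, 0 of 10 members were called at 3 months (185 of 1900 genes called, 9.74%), at 6 months (7.11%) or at 9 months (1.89%). At an unadjusted p under 0.05 the count was also 0 at each age. The members' median fold change was -0.73 at 3 months, -0.44 at 6 months and 0.11 at 9 months, against -0.26, -0.08 and 0.11 over all genes tested. Ier2 stood at -1.22, -0.78 and -1.17 at the 3 ages, and Atf3 at -1.01, -0.57 and -0.88. Jun stood at -1.14, -0.90 and -0.03, and Egr1 at -1.22, -0.54 and 0.26. Thus 7 of the 10 fitted values were above 0 at 9 months, Atf3 and Ier2 lay below it, and Jun lay close to 0 with a sign that changed under several alternatives. The test of whether the GFP difference changed with age called 0 members and 3 genes in all (0.158%), so no change of the difference with age was detectable at this depth.

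How the circuit was shared among its members was described as each gene's share of the reads of all 10. This removes the summed level and the scaling between libraries. In the 17 thyroid libraries with at least 10000 reads, the lowest, median and highest share of Fosb were 11.5, 13.2 and 17.7% in GFP+ cells and 6.57, 10.4 and 13.0% in GFP- cells. For Jun they were 10.3, 11.2 and 13.7% in GFP+ cells and 10.5, 13.8 and 20.6% in GFP- cells. With the ages together the ranges of both genes overlapped, and at 3 months they did so as well. At 6 and at 9 months every GFP+ library lay above every GFP- library for Fosb and below every GFP- library for Jun. At 9 months the gap was small, with 2 GFP- libraries. The nearest GFP+ and GFP- values were 11.54 and 11.51% for Fosb and 12.43 and 12.64% for Jun. The shallow GFP- library at 9 months (27 member reads) went the other way for both, at 14.8% for Fosb and 7.41% for Jun. The shallow GFP- library at 6 months (39 member reads) did so for Fosb (17.9%) and not for Jun (20.5%). At 6 months Fosb took 13.2 to 15.9% in 3 GFP+ libraries and 8.70 to 10.98% in 3 GFP- libraries, and Jun 11.6 to 13.7% in GFP+ and 15.2 to 18.2% in GFP- libraries. Pooled over reads, Fosb took 13.3% in GFP+ (Wilson 95% interval 12.6 to 13.9%) and 10.7% in GFP- cells (10.1 to 11.2%). Jun took 11.9% in GFP+ (11.3 to 12.6%) and 15.1% in GFP- cells (14.5 to 15.8%).

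Jund, the AP-1 subunit with steady basal expression, had a median share of 11.5% in GFP+ cells (7.29 to 16.3%) and 9.45% in GFP- cells (5.03 to 12.2%). Atf3 had a median share of 4.33% in GFP+ cells (2.14 to 5.30%) and 5.67% in GFP- cells (2.86 to 7.98%). Ier2 had a median share of 1.08% in GFP+ cells (0 to 2.08%) and 2.21% in GFP- cells (0.469 to 3.45%). Pooled over reads, Jund took 10.7% in GFP+ and 8.85% in GFP- cells, Atf3 4.05 and 5.27%, and Ier2 1.46 and 2.36%. Like these, the pooled shares of the other 5 each differed between the fractions by less than 2 percentage points. Fos took 15% in GFP+ and 15.5% in GFP- cells, and Egr1 17.5% in GFP+ and 18.2% in GFP- cells. Junb took 16.6% in GFP+ and 15% in GFP- cells, Zfp36 6.83% in GFP+ and 6.16% in GFP- cells, and Dusp1 2.70% in GFP+ and 2.89% in GFP- cells. The Wilson intervals cover counting error only, and the shares were not tested.

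**Figure D3:**
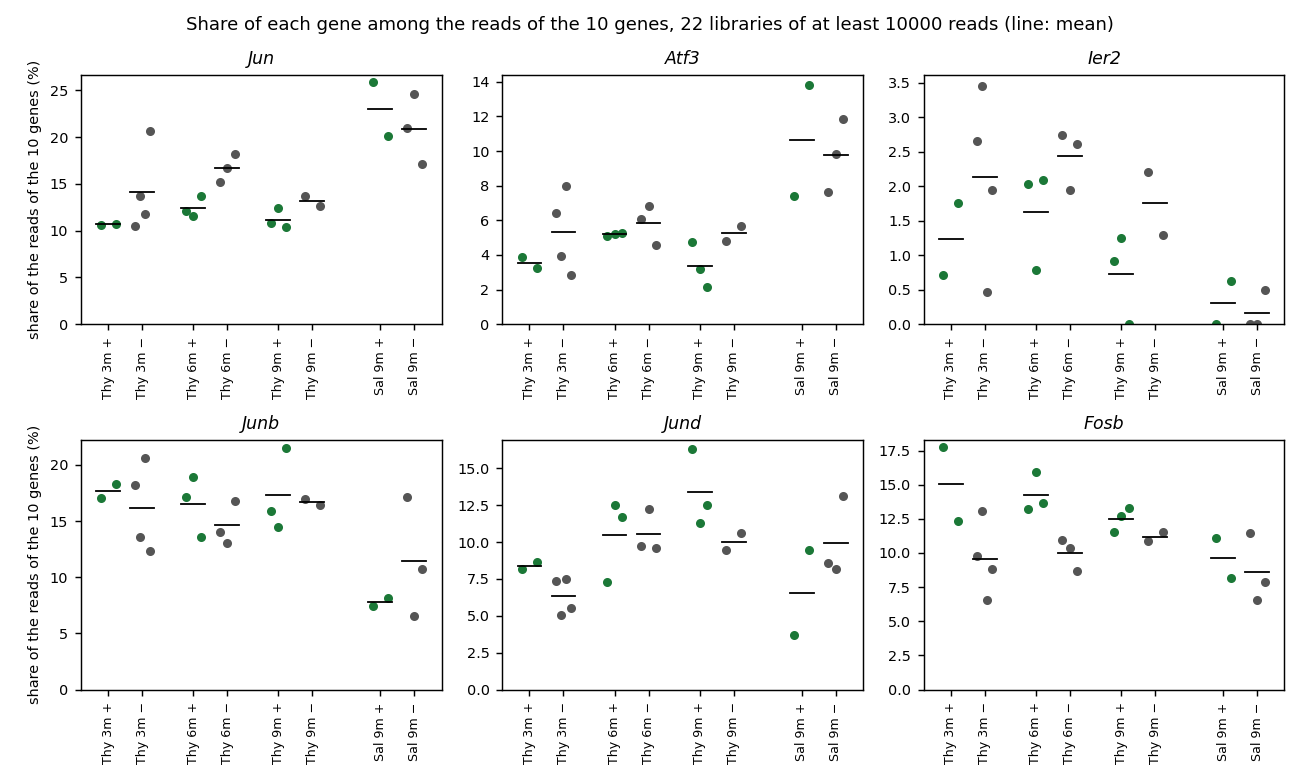
Share of 6 of the genes in the reads of all 10 (percent) in the 22 libraries with at least 10000 reads, GFP+ left of GFP- in thyroid and thyroid left of salivary gland. Points are libraries and lines are means. Fosb sits higher in thyroid GFP+ than in GFP- libraries (medians 13.2 and 10.4%), and Jun and Atf3 take larger shares in salivary gland than in thyroid.

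Within a fraction, age moved no member past the test. In GFP+ cells 0 of 10 were called over the 3 ages (1.58% of all genes), between 6 and 3 months (0.737%), 9 and 6 months (0.474%) or 9 and 3 months (0.947%). In GFP- cells 0 of 10 were called over the 3 ages (1.53%), between 6 and 3 months (0.158%), 9 and 6 months (0%) or 9 and 3 months (0.684%). None of these comparisons had a member at an unadjusted p under 0.05. For 9 against 6 months in GFP- cells, the 0 calls over all genes stood beside 156 genes at an unadjusted p under 0.05. The largest fold change was that of Ier2 in GFP+ cells between 9 and 6 months, -1.32 on the log2 scale (95% interval -2.65 to 0.00, unadjusted p = 0.0506). In GFP- cells Jun gave -1.01 between 9 and 6 months (-2.54 to 0.52), and Jund gave 0.76 between 6 and 3 months (-0.56 to 2.08). Summed over the 10 genes, pooled reads gave 13121, 11626 and 10198 CPM in GFP+ cells and 12635, 13132 and 10086 CPM in GFP- cells at 3, 6 and 9 months. At 3 months, 2329 of the 2638 member reads in GFP+ cells came from replicate 4. Means over libraries, shallow ones included, were 8843, 9136 and 9848 CPM in GFP+ cells. In GFP- cells these means were 11305.5, 11445.7 and 8331 CPM.

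Many pairs of members varied together across libraries, and some did not. Over the 17 deeper thyroid libraries, Pearson correlations of log2 CPM (with TMM factors) between the 45 pairs of members ran from -0.11 for Dusp1 and Jund to 0.81 for Egr1 and Jun, with a median of 0.43. For all genes of that table, the mean correlation with the 10 members had a median of 0.11 and a 95th percentile of 0.41. Those are means over 10 members and not values of single pairs, and the genes were not matched to the members for abundance. Other high values were 0.79 for Fos and Jun, 0.77 for Fos and Egr1 and 0.74 for Jun and Ier2. The feedback genes Zfp36 and Dusp1 correlated at 0.79. Jund stayed at -0.11 to 0.43 with the other members. Atf3 was at 0.06, 0.09 and 0.14 with Dusp1, Zfp36 and Fosb. Libraries share fraction, age and depth with one another, so these are descriptions over 17 points and carry no p.

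**Figure D4:**
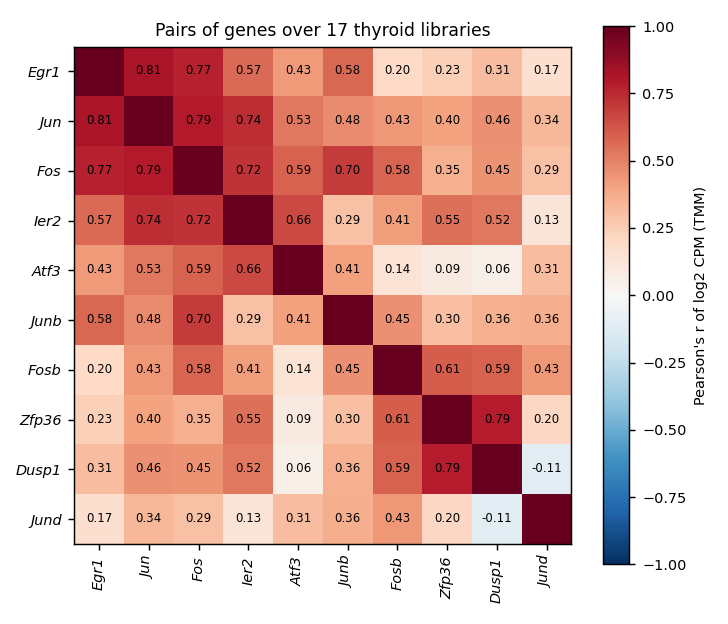
Pearson correlation (colour scale, r) of log2 CPM between each pair of the 10 genes over the 17 thyroid libraries with at least 10000 reads. Egr1, Fos and Jun form the highest block (0.77 to 0.81), Zfp36 and Dusp1 pair at 0.79, and Dusp1 and Jund have the lowest value (-0.11).

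The heat map of correlations shows those blocks. Outside the members, 8 of 2414 genes followed them most closely over these libraries. They were Prkar1a (mean r = 0.59), Btg2 (0.59), Trib1 (0.56), Txnip (0.55), Irf2bp2 (0.55), Tmcc3 (0.54), Cd2ap (0.54) and Gnas (0.53). Prkar1a encodes a regulatory subunit of protein kinase A and Gnas the stimulatory G protein alpha subunit, both steps of cAMP signalling. Btg2 and Trib1 are themselves immediate early genes. Over all 22 deeper libraries of both glands, Trib1 (0.72), Tmem59 (0.68), Tgoln1 (0.68), Smarca2 (0.68), Prkar1a (0.67), Cacybp (0.67), Calm3 (0.66) and Ncl (0.66) were the closest of 2169 genes, and the median between members was 0.66. Those values span the difference between glands as well.

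In salivary gland the same genes made up a smaller part of the reads. Over the deeper libraries at 9 months, the 10 together gave 8386 to 10927 CPM in 5 thyroid libraries (median 10337 CPM) and 1371 to 4288 CPM in 5 salivary libraries (median 2007 CPM). The glands did not overlap. Without ribosomal RNA rows the sums were 11688 to 16677 CPM in thyroid and 2765 to 10042 CPM in salivary gland, again with no overlap. Ribosomal RNA rows held 28.3 to 39.0% of gene reads in those thyroid libraries and 38.9 to 63.8% in the salivary ones, and mitochondrial messenger RNA 2.62 to 4.67% and 5.42 to 20.5%. Salivary acinar markers summed to at most 90.2 CPM in thyroid groups, against 4380 CPM in salivary GFP+ and 13453 CPM in salivary GFP- cells. The part of these other transcripts in the members' lower CPM was not tested. Within the salivary gland the order began with Jun at 547 CPM (rank 37 of 9197 genes detected), Egr1 at 521 CPM (rank 40) and Fos at 475 CPM (rank 44), and ended with Dusp1 at 55.9 CPM (rank 492) and Ier2 at 12.7 CPM (5 reads, rank 2723).

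Thyroid was set against salivary gland within each fraction in a fit of the 12 libraries at 9 months, in which 974 genes and 9 members could be tested. Ier2 was too low for that test. With TMM scaling, 0 of 9 members were called in GFP+ cells (140 genes called, 14.4%) and 0 of 9 in GFP- cells (138 genes, 14.2%). The members' median log2 fold change was 0.80 in GFP+ cells, against 1.15 over all genes, and -0.04 in GFP- cells, against 0.17 over all genes. By library size alone, 7 of 9 members were called higher in thyroid GFP+ cells, where 799 genes were called (82%), and 9 of 9 in thyroid GFP- cells, where 809 were (83.1%). The members' medians were then 2.97 and 2.03, against 3.22 and 2.24 over all genes. The gland difference in CPM was thus shared by most of the genes tested. Relative to them the members lay slightly below the middle under either scaling. Genes could pass the filter through the thyroid libraries alone. Among the members, Zfp36 and Dusp1 did so, with 37 and 22 reads in the 6 salivary libraries. Their part in the counts by library size alone is therefore not a separate result. The salivary GFP+ libraries held 121 to 3402 detected genes, against 6890 to 9666 in the thyroid GFP+ ones. The median over all genes can therefore lean towards thyroid, and the members' place against it was not tested.

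**Figure D5:**
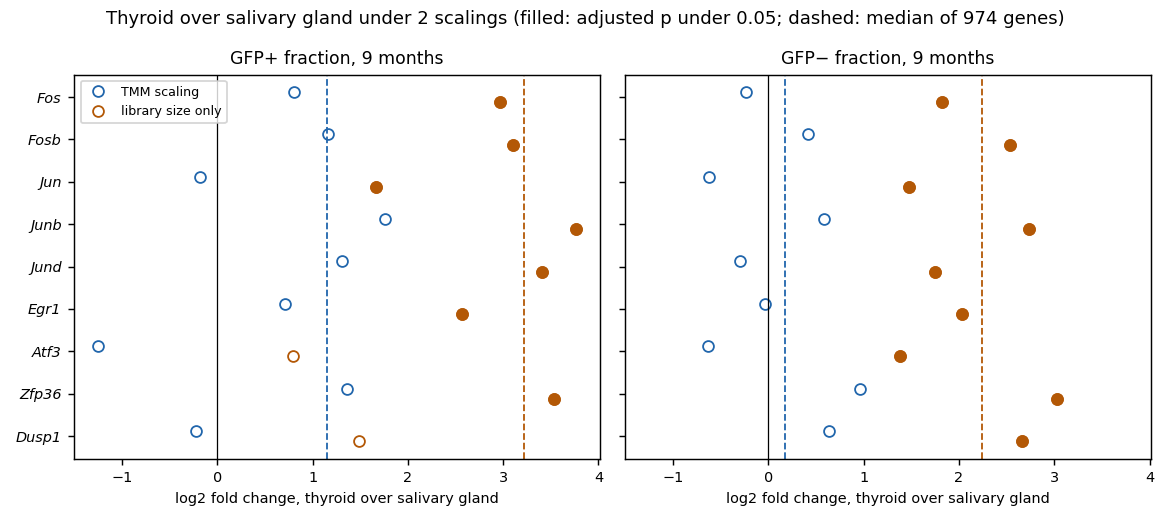
Log2 fold changes of thyroid against salivary gland at 9 months for 9 genes (axis: log2 fold change), in GFP+ and GFP- cells, with TMM factors and by library size alone, beside the median of all genes tested (dashed). Filled points have an adjusted p under 0.05. With TMM the genes lie on both sides of 0, and by library size alone all lie above 0, as does the median of all genes.

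In the plot of gland fold changes, Junb was highest and Atf3 lowest in GFP+ cells. In GFP- cells the plot shows Zfp36 highest under both scalings. Zfp36 passed the filter through the thyroid libraries, so this place is not read as a result. Junb gave 1.76 in GFP+ cells with TMM (95% interval -0.20 to 3.71, adjusted p = 0.208), from 1336, 1568 and 2221 CPM in thyroid GFP+ and 0, 170 and 164 CPM in salivary GFP+ libraries. In GFP- cells Junb was at 1190, 1855 and 1559 CPM in thyroid and 235, 111 and 461 CPM in salivary gland. In both fractions every thyroid library was above every salivary one. Atf3 gave -1.25 in GFP+ cells (-2.91 to 0.40, adjusted p = 0.301), from 399, 347 and 221 CPM in thyroid GFP+ and 0, 170 and 278 CPM in salivary GFP+ libraries, which overlapped. In GFP- cells Atf3 was at 1020, 528 and 538 CPM in thyroid and 104, 166 and 509 CPM in salivary gland, with no overlap. Fitted with only the 2 GFP+ groups, Atf3 was called lower in thyroid (-1.68, adjusted p = 0.0175). The share of all genes called in that fit is not given here. By library size alone the GFP+ fold change of Atf3 was 0.80, so its direction followed the scaling.

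The shares of the members avoid that scaling. Jun took 10.3 to 13.7% of member reads in the 5 deeper thyroid libraries at 9 months (median 12.4%) and 17.2 to 25.9% in the 5 salivary ones (median 21.0%). Atf3 took 2.14 to 5.67% in thyroid (median 4.76%) and 7.41 to 13.8% in salivary gland (median 9.84%). For both genes the glands did not overlap among these libraries at 9 months. Junb ran the other way, with 14.5 to 21.5% in thyroid (median 16.5%) and 6.56 to 17.1% in salivary gland (median 8.18%). Fosb took 10.9 to 13.3% in thyroid and 6.56 to 11.4% in salivary gland. Egr1, at 15.4 to 21.1% in thyroid and 16.2 to 22.2% in salivary gland, took about the same part in each. At 3 months, deeper thyroid GFP- libraries reached 20.6% for Jun and 7.98% for Atf3, inside the salivary ranges. The shallow thyroid GFP- library at 9 months (27 member reads) gave 7.41% for Jun and 22.2% for Atf3. The salivary shares rest on 1161 member reads, and the shares of both glands were not tested.

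Between salivary GFP+ and GFP- cells, 0 of 9 members and 0 of 974 genes (0%) were called by edgeR, with 96 genes at an unadjusted p under 0.05 and 2 genes called by DESeq2, both lower in GFP+ cells. The members' median was -0.59 on the log2 scale, against -0.89 over all genes. Junb was lowest, at -1.18 (95% interval -3.16 to 0.80). Dusp1 was the only member above 0, at 0.77 (-1.21 to 2.75), from 0, 509 and 12.6 CPM in GFP+ libraries, against 13.1, 55.4 and 63.6 CPM in GFP- libraries. Its value rested on GFP+ replicate 2, and leaving out 1 library at a time gave -1.82 to 1.37. The test of whether the GFP difference itself differed between the glands called 0 members and 0 of 974 genes (0%), with 86 at an unadjusted p under 0.05.

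Other immediate early genes from a list of 51 were tested in the same thyroid contrast, over the mean of the 3 ages. Of 29 that passed the filter, 5 were called, against 20.2% of all genes, 4 higher and 1 lower in GFP+ cells, and the list's median log2 fold change was 0.09. Ccn2, a matricellular protein gene of connective tissue, is counted among the higher ones. It was at 0, 128 and 472 CPM in GFP+ cells, against 0, 33.5 and 201 CPM in GFP- cells, as lowest, median and highest. With 177 reads in the 11 GFP+ and 45 in the 11 GFP- libraries, Ccn2 passed the filter through GFP+ cells, so its test is not given. Cebpd was higher by 1.35 ± 0.38 (SE, adjusted p = 0.00284), with 164, 587 and 1972 CPM in GFP+ cells, against 26.0, 170 and 422 CPM in GFP- cells. Cebpb, which like Cebpd encodes a C/EBP factor of acute phase responses, was higher by 1.27 ± 0.38 (adjusted p = 0.00606). The fractions overlapped for each of these. Dusp6, a phosphatase of ERK, was lower (-1.10 ± 0.38 SE, adjusted p = 0.0229), with 0, 129 and 235 CPM in GFP+ cells, against 0, 263 and 413 CPM in GFP- cells. The fifth called gene was Errfi1, an inhibitor of EGF receptor signalling (1.04, adjusted p = 0.0372), which lost its call in 12 of 22 fits that left out 1 library. Cebpb was not called when GFP+ replicate 2 at 9 months was dropped (1.09, adjusted p = 0.0873), and Dusp6 lost its call in 5 of 22 such fits.

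Transcripts with AU-rich elements, the kind that the Zfp36 protein binds, were also listed, and 4 of 11 passed the filter on low counts. Of all genes tested, 11.4% were called higher in GFP+ cells. Il6, an inflammatory cytokine, was higher by 2.56 ± 0.44 (SE, adjusted p = 2.82e-07), with 0, 307.2 and 629 CPM in GFP+ cells, against 0, 25.6 and 413 CPM in GFP- cells as lowest, median and highest. Cxcl1, a neutrophil chemokine, was higher by 2.15 ± 0.42 (adjusted p = 9.25e-06), with 0, 1233 and 3434 CPM in GFP+ cells, against 35.8, 170 and 730 CPM in GFP- cells. The fractions overlapped for both, and both calls held in every alternative run. Il6 had 285 reads in the 11 GFP+ and just 55 in the 11 GFP- libraries, and its highest GFP- value came from a library under 10000 reads. Ccl2, a monocyte chemokine, and Ptgs2, the inducible cyclooxygenase, had 34 and 22 reads in the 11 GFP- libraries, against 160 and 132 in the 11 GFP+ libraries. Both passed the filter mainly through GFP+ cells, so their tests are not given, nor is a count or median for this list. Fibroblast markers were higher in the same fraction, as given above, and their part in these 4 genes was not tested.

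Among the partners of AP-1 and ATF genes that could be tested, Atf5 was higher in GFP+ cells (1.24 ± 0.38 SE, adjusted p = 0.00669) and lost its call in 2 of the 22 fits without 1 library. For the lists that follow, the share over all genes was 20.2% called, 8.79% lower. Of 20 genes of the MAP kinase and serum response factor route, 4 were tested and 1 was called lower in GFP+ cells, the ternary complex factor gene Elk3. Elk3 had 49 reads in the 11 GFP+ and 129 in the 11 GFP- libraries. It passed the filter mainly through GFP- cells, so its test is not given. Of 11 genes of the integrated stress response, 5 were tested and 0 called, with a median of -0.66. Its most abundant tested genes were the chaperone gene Hspa5 (-0.31, adjusted p = 0.754) and Atf4, the response's central factor (-0.31, adjusted p = 0.700). Of 11 heat shock genes, 8 were tested and 3 were called lower in GFP+ cells, with a median of -0.60. These were Hspb1 (-1.45, adjusted p = 0.00555) and the near-identical pair Hspa1b (-1.12, adjusted p = 0.0289) and Hspa1a (-1.07, adjusted p = 0.0321), between which reads can be split. Hspb1 was not called when GFP- replicate 2 at 9 months was dropped (-1.26, adjusted p = 0.0700), and Hspa1a and Hspa1b lost theirs in 10 of 22 fits without 1 library each.

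At 6 months, 2 of the 29 other immediate early genes were called, beside 7.11% of all genes, and at 3 and 9 months 0 were. They were Ccn2, whose test is not given because it passed the filter through GFP+ cells, and Cebpd (2.03), both higher in GFP+ cells. Cebpd lost this call in 12 of 22 fits without 1 library. Between the glands at 9 months, Pim1, Cebpb and Errfi1 had 118, 96 and 90 reads in the thyroid GFP+ libraries and 0 reads each in the salivary GFP+ libraries. The AP-1 subunit gene Fosl2 had 51 reads in the thyroid GFP- and 1 read in the salivary GFP- libraries. These genes passed the filter through the thyroid libraries, so their tests between glands are not given.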

How the data were processed

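Gene counts were used as deposited by the authors, 1 table per library, with 47643 gene rows and 5 summary rows that stayed out of library sizes and tests (no-feature reads were 13.3 to 85.8% of all). Per the labels' protocols, RNA came from a column kit with DNase treatment and libraries from a QuantSeq 3′ kit. Per the submitters' processing notes, bcl2fastq was used and the build was mm9, without versions. The aligner, counting program and strand setting are not given in the sources used here. Gene IDs were matched to symbols (47224 matched, 419 did not). No label says that replicates came from separate animals, and the p-values then reflect just the spread among these libraries, which may be technical. All 36 pairs of libraries within groups differed beyond sampling noise, and 0 were identical.

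Tests used edgeR 4.0.16 (R 4.3.3): TMM factors, filterByExpr (minimum 10, total 15), the robust quasi-likelihood test, and Benjamini-Hochberg adjusted p under 0.05 over all genes tested. The 22 thyroid libraries entered 1 fit of 6 groups (TMM 0.574 to 10.7, the highest in the library of 507 reads), and the 12 libraries at 9 months a fit of 4 groups (0.232 to 7.11). Correlations used a prior count of 2. Scripts were tested on simulated data.

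All 10 members are named, with their values by library in the plot. Of each related list, up to 4 called genes by adjusted p are named, or the 2 most abundant where none was called, as are the 8 genes most correlated with the members. Errfi1 over the mean of ages falls outside this rule. A called gene of the list of AP-1 partners and ATF genes is not reported here. Members and lists were chosen with earlier results of these data known. Alternatives were DESeq2 1.42.0, its size factors, no filter, a stricter filter (20 counts in 50% of libraries), 1 fit of all 28 libraries, fits of just the groups compared, a replicate block, no ribosomal RNA rows, no libraries under 10000 reads, and each library left out. Scaling by library size alone was added after the data were seen.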

Additional observations from a re-analysis of the deposited data

Results flagged for a closer look

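In the 4 groups that hold 4 libraries, each of the 10 genes and their sum was checked (44 sets of 4 values). The highest or lowest library was compared with the others by Dixon's ratio of gap to range, whose critical value is 0.829 for 4 libraries. This marks about 1 in 20 sets by chance, and 3 of the 44 were marked. Fosb in thyroid GFP+ cells at 6 months was at 0 CPM in replicate 4, the library of 507 reads, with a ratio of 0.951. Zfp36 in thyroid GFP- cells at 6 months was at 0 CPM in replicate 2, the library of 4845 reads, with a ratio of 0.852. Dusp1 in thyroid GFP- cells at 6 months was at 619 CPM in the same replicate 2, which stands for 3 reads, with a ratio of 0.875.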

How the results depend on the processing

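The count of members called over the mean of the 3 ages (1, Ier2) was 0 with all 28 libraries in 1 fit, in DESeq2, by library size alone and without a filter, 2 with the stricter filter and 3 without libraries under 10000 reads. Leaving out 1 library gave 0 to 1. Ier2 was no longer called without GFP+ replicate 2 at 6 months (log2 fold change -0.95, adjusted p = 0.0767) or replicates 1 (-1.05, 0.0854) or 3 (-0.87, 0.195) at 9 months, and without GFP- replicate 2 at 3 months (-0.93, 0.0778), replicate 4 at 6 months (-0.97, 0.0672) or replicates 2 (-0.77, 0.339) or 3 (-1.02, 0.117) at 9 months. Without GFP+ replicate 4 at 3 months it was -1.62 (0.00479). At 6 months the stricter filter called 1 member (Jun, -1.17, adjusted p = 0.0448). Between the glands, library size alone called 7 members in GFP+ cells (beside 82% of all genes) and 9 in GFP- cells (beside 83.1%). Zfp36 is in both counts and Dusp1 in that of GFP- cells, and both genes passed the filter through the thyroid libraries. The 2 GFP+ groups alone called 1 member. The shares over all genes for the stricter filter at 6 months and for the 2 GFP+ groups alone are not given here. These calls of Jun and Atf3 thus cannot be set against them. Signs changed by library size alone over the mean of ages for Fos (0.044), Fosb (0.34), Junb (0.10), Jund (0.36), Zfp36 (0.22) and Dusp1 (0.062), and between glands for Atf3 (0.80 in GFP+, 1.38 in GFP-). They also changed for Fosb without a filter (0.023) and, without libraries under 10000 reads, for Fosb (0.17), Jund (0.032) and Egr1 at 9 months (-0.14). Jun at 9 months was 0.031 with DESeq2 size factors, 0.047 in DESeq2, 0.078 without a filter, 0.11 with the replicate block and 0.069 with all 28 libraries. Leaving out 1 library gave -0.22 to 0.10 for Fosb and -0.26 to 0.13 for Jund over the mean of ages, -0.43 to 0.49 for Jun and -0.18 to 0.79 for Egr1 at 9 months, -1.82 to 1.37 for Dusp1 in salivary gland, and -1.48 to 1.09 in GFP+ and -0.91 to 0.35 in GFP- cells for Atf3 between glands. The causes were not tested. The labels do not say whether same-number GFP+ and GFP- libraries belong together. Residuals of 3 of 11 same-number thyroid pairs had r above 0.1 (-0.09 to 0.35), as did 2 of 3 salivary pairs (0.08 to 0.19). Pairs of different number were not set beside them, so these values cannot decide whether the fractions were paired. With the replicate block, Ier2 was -1.07 (adjusted p = 0.0483), 1 member was called, and no other member's call changed. Depth limits what can be told: a gene at 0 reads may hold up to 14.3 to 5917 CPM, by library.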
